A study of Homo sapiens with 12 samples.

Results

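The anoctamins are a family of membrane proteins encoded in humans by 10 genes, ANO1 to ANO10, and all 10 were found by symbol among the 62069 genes of the count table. The family was chosen by a value measured in these same libraries: ANO1, its founding member, was lower after induction of oncogenic RAS and higher with each of 2 shRNAs against XPO7. Those 3 differences of ANO1 are therefore given as a description, with no test, and the question examined was whether the 9 relatives of ANO1 moved in the same way.

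Anoctamins, also named TMEM16 proteins, work as dimers, and many are opened by calcium inside the cell. Some are chloride channels of the cell surface, and others are lipid scramblases, which let phospholipids cross from one leaflet of the membrane to the other. In the airway and the gut, ANO1 carries chloride across epithelia and sets the rhythm of the interstitial cells of Cajal, and it is also gained or overexpressed in several carcinomas.

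RNA-seq was carried out on IMR90 ER:RAS cells, human lung fibroblasts that carry RAS fused to the estrogen receptor so that 4-hydroxytamoxifen (4OHT) switches it on and oncogene-induced senescence (OIS) follows. There were 4 groups of 3 libraries each, all from cells at passage 13 and day 5. The non-induced cells had no 4OHT, the induced cells had 100 nM 4OHT, and the remaining groups had 100 nM 4OHT together with shXPO7_3 or shXPO7_5. The labels name no vector for the cells without an shRNA, which the study describes as vector-transduced. In figure legends for other experiments in these cells, the study names its vector control as non-targeting. No source used here tells if the control of these libraries carried a non-targeting shRNA. The presence of an shRNA and the loss of XPO7 therefore cannot be told apart. No group carried an shRNA without 4OHT, so an effect of the shRNAs on resting cells is not covered, and activation of RAS and exposure to 4OHT cannot be told apart. Induced cells were the common control of both knockdown comparisons. No source used here tells if the 3 libraries in each group are independent cultures, so p-values cover only how far these libraries differ, possibly for technical reasons.

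XPO7, the nuclear transport receptor targeted by the shRNAs, was read at 126.8, 143.8 and 139.3 CPM (TMM-scaled counts relative to library size) in the induced libraries. It stood at 26.4, 28.7 and 27.9 CPM with shXPO7_3 and at 50.8, 54.0 and 51.8 CPM with shXPO7_5, which are 20.3% and 38.2% of the induced mean. The log2 change was -2.30 (SE 0.07, edgeR adjusted p = 1.24e-08) with shXPO7_3 and -1.39 (SE 0.07, edgeR adjusted p = 3.27e-06) with shXPO7_5. Depth ran from 28534141 to 60397769 counts per library. Summed levels of 10 fibroblast markers were 24440 to 28190 CPM in non-induced cells and 17160 to 22100 CPM over the other three groups, and no fibroblast marker was at 0 in a whole group. Of the markers of other cell types, CD3E of T cells, PECAM1 and CDH5 of endothelium, KRT5 of basal epithelium and MYOD1 and MYOG of skeletal muscle were at 0 in every library, but others were read. Among 7 epithelial markers KRT18 averaged 32.4 CPM in non-induced and 34.0 in induced cells, KRT19 33.6 and 2.01, and KRT8 9.78 and 6.26. Of the 4 endothelial markers TEK averaged 12.4 and 6.31 CPM and VWF 2.23 and 3.14, and DES, listed for muscle, averaged 2.75 and 0.209 CPM. The summed levels ran from 75.0 to 90.1 CPM in non-induced and 41.5 to 60.99 in the other groups for the epithelial list, from 14.4 to 14.8 and 8.18 to 10.9 for the endothelial list, from 2.997 to 3.74 and 0.390 to 0.928 for 6 skeletal muscle markers, and from 0.464 to 0.680 and 0.270 to 0.664 for 5 leukocyte markers. Their part in the results was not tested. Libraries also differed in how a gene's ratio to the induced mean ran with the GC content of its transcript. The rank correlation across genes was 0.598, 0.109 and 0.77 in shXPO7_5 replicates T, A and B and 0.567, -0.334 and -0.25 in shXPO7_3 replicates T, A and B. It was -0.175, -0.201 and 0.308 in induced replicates T, A and B. In non-induced replicates T, A and C it was 0.301, 0.123 and -0.0485. Genes are not independent replicates.

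Of the 10 members, 6 passed the filter on low counts and entered the test with 15284 genes in all: ANO1, ANO4, ANO6, ANO7, ANO8 and ANO10. Set per kilobase of merged exons, so that genes can be compared, ANO10 was the most abundant in non-induced cells at 21.2 ± 1.495 CPM per kb (SD, n = 3), followed by ANO6 at 15.0 ± 1.19, ANO4 at 7.68 ± 0.856 and ANO1 at 6.17 ± 0.0270. ANO8 came next at 1.78 ± 0.281 and ANO7 at 0.269 ± 0.0517 CPM per kb. The libraries of neighbours in this order did not overlap. In induced cells ANO6 (16.9 ± 0.258 CPM per kb) and ANO10 (16.3 ± 0.479) overlapped at the top, as they did under both shRNAs. ANO1 had dropped below ANO8 in every induced library, at 0.908 ± 0.0589 against 1.803 ± 0.206 CPM per kb. It overlapped with ANO8 under shXPO7_3 (1.65 ± 0.312 against 1.77 ± 0.136) and shXPO7_5 (1.96 ± 0.240 against 1.97 ± 0.346).

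**Figure D1:**
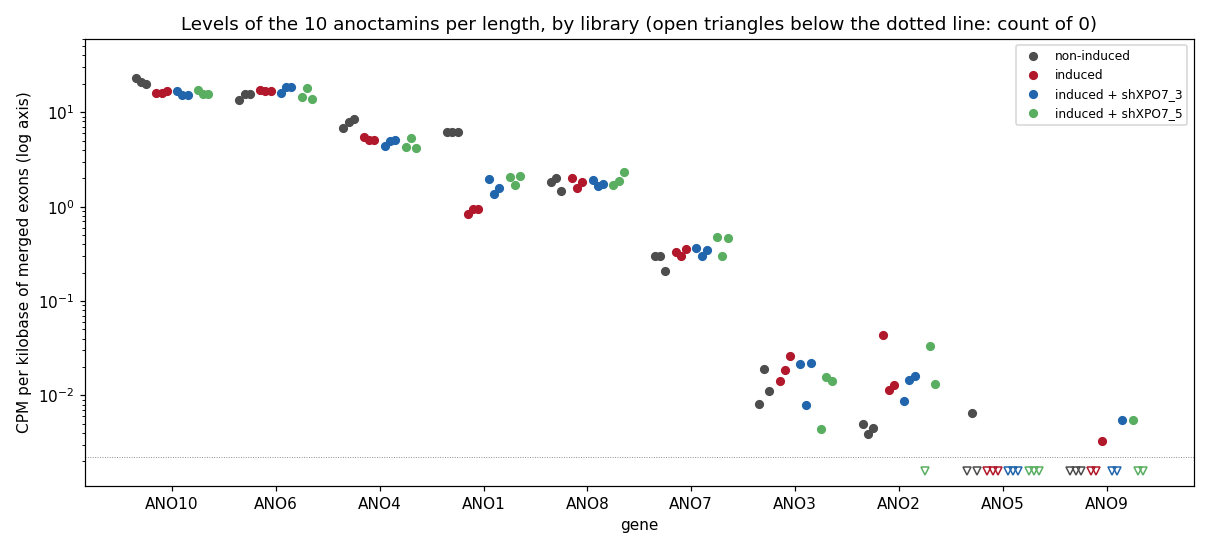
Level of each of the 10 anoctamins in each of the 12 libraries, as CPM per kilobase of merged exons on a log axis, with 1 dot per library coloured by group and open triangles for a count of 0. ANO10 and ANO6 lie on top in every group, ANO1 goes from 6.17 in non-induced to 0.908 CPM per kb in induced cells, and ANO3, ANO2, ANO5 and ANO9 lie near the bottom throughout.

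Added over the 10 genes, anoctamin mRNA came to 52.1 ± 0.802 CPM per kb in non-induced cells, 41.5 ± 0.611 in induced cells, 42.2 ± 0.634 with shXPO7_3 and 40.7 ± 1.93 with shXPO7_5. ANO1 held 11.8% ± 0.148 of that sum in non-induced cells, 2.19% ± 0.161 in induced cells, 3.91% ± 0.796 with shXPO7_3 and 4.84% ± 0.796 with shXPO7_5. ANO6 and ANO10 together held 69.5% ± 1.16 in non-induced and 79.97% ± 0.682 in induced cells. These sums include ANO1, whose difference chose the family, and are given without a test.

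The calcium-activated chloride channels of the family are ANO1 and ANO2. ANO1 (ENSG00000131620, chromosome 11) was measured at 37.0, 37.2 and 37.2 CPM in non-induced replicates T, A and C. It was at 5.06, 5.67 and 5.67 CPM in induced replicates T, A and B. All induced libraries lay far below all non-induced ones, with a mean of 14.7% of the non-induced mean and a log2 difference of -2.76 (SE 0.14). As in any bulk sample, fewer cells that express a gene and less RNA per cell cannot be told apart.

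With shXPO7_3, ANO1 was at 11.96, 8.27 and 9.51 CPM in replicates T, A and B. With shXPO7_5 it was at 12.5, 10.2 and 12.8 CPM. Every knockdown library was above every induced library and below every non-induced library. The means were 181% and 216% of the induced mean, and 26.7% and 31.8% of the non-induced mean, so ANO1 stayed short of its level in non-induced cells. The log2 differences from induced cells were 0.86 (SE 0.13) for shXPO7_3 and 1.11 (SE 0.13) for shXPO7_5. Within each shRNA, replicate A had the lowest ANO1 level and also the lowest correlation with GC content. After an offset for GC content and length the differences were -2.69 for induction, 0.83 for shXPO7_3 and 0.97 for shXPO7_5. All kept their sign, and the one for shXPO7_5 moved most, from 1.11 without the offset.

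The shRNAs could be compared directly, since that contrast was not used to choose the family. ANO1 differed by 0.25 on the log2 scale between shXPO7_5 and shXPO7_3 (95% confidence interval -0.028 to 0.53, edgeR adjusted p = 0.388), and the libraries overlapped. With the offset for GC content and length this difference was 0.13 (edgeR adjusted p = 0.561). XPO7 itself was higher under shXPO7_5 than under shXPO7_3 by 0.92 (SE 0.07, edgeR adjusted p = 0.000387). In that contrast 0.0131% of all genes tested were called, and by edgeR 0 of the 6 anoctamins tested were among them. At an unadjusted threshold of 0.05 the count was also 0, where 11.9% of all genes tested had such a p. DESeq2 called 0 of the 6, and 27 genes in all. These counts of 0 are near the background.

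An antisense transcript, ANO1-AS1, shares 646 bases with the exons of ANO1, or 10.7% of them, and its own counts were 0 to 8 per library. Without knowing the strand setting of the counting, reads of the sense and antisense genes cannot be told apart. KIT, which with ANO1 marks interstitial cells of Cajal, averaged 14.0 CPM in non-induced cells, 0.734 in induced cells, 0.712 with shXPO7_3 and 0.710 with shXPO7_5. ETV1, a transcription factor of the same cells, went the other way, at 44.1, 67.0, 71.9 and 48.8 CPM in the same order, and ACTG2, a smooth muscle actin, made up most of the summed level at 398.0, 169.4, 140.5 and 188.5 CPM. The 4 markers listed for smooth muscle and these cells (MYH11, ACTG2, KIT and ETV1) added up to 442.2 to 479.9 CPM in non-induced cells, 232.2 to 242.9 in induced cells, 206.7 to 217.0 with shXPO7_3 and 223.1 to 248.8 with shXPO7_5, with none of the 4 at 0 in a whole group. Their part in the level of ANO1 was not tested.

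ANO2 (chromosome 12), the channel of olfactory neurons and photoreceptors, is the closest relative of ANO1 by sequence. In alignments of the proteins encoded by the longest coding transcripts of GENCODE 29, ANO2 shared 61.1% of aligned residues with ANO1, against 45.0% for ANO4, 41.8% for ANO6, 29.7% for ANO10 and 29.3% for ANO8. Its counts were 1, 1 and 1 in non-induced libraries, 10, 2 and 4 in induced ones, 2, 3 and 6 with shXPO7_3 and 0, 7 and 3 with shXPO7_5. A count of 0 allows up to 3 counts, which is 0.0497 to 0.105 CPM depending on the library, so these values lie close to the limit and no fold is given. Such limits cover counting error only.

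**Figure D2:**
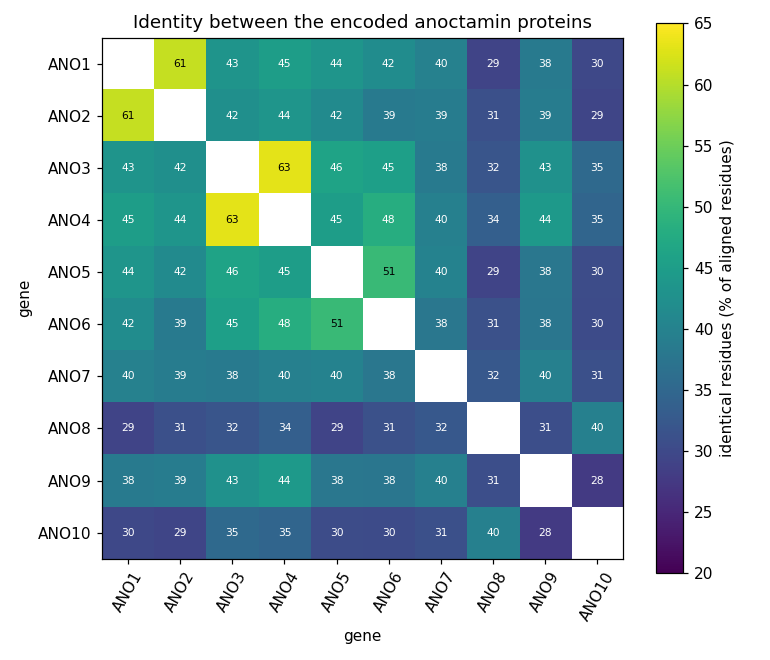
Percent of identical residues among aligned residues for each pair of the 10 anoctamin proteins, as rounded numbers and colours, with genes on both axes. The pairs ANO3 with ANO4 (63.1%), ANO1 with ANO2 (61.1%) and ANO5 with ANO6 (50.6%) stand out, and ANO8 and ANO10 (39.6% with each other) are the most distant from ANO1.

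Sequence likeness to ANO1 and presence in these fibroblasts did not go together. ANO10 and ANO6 were the most abundant members and share 29.7% and 41.8% of residues with ANO1, whereas ANO2 was near the limit of detection. The pair ANO3 and ANO4, the most alike in the family, was likewise divided, with ANO4 well expressed and ANO3 barely counted.

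Among the lipid scramblases, ANO6 (ENSG00000177119, chromosome 12) is the one that exposes phosphatidylserine on activated platelets, and its loss causes the bleeding disorder Scott syndrome. It was measured at 112.1, 128.4 and 129.7 CPM in non-induced replicates T, A and C and at 141.4, 138.1 and 137.5 CPM in induced replicates T, A and B. The induced libraries were all above the non-induced ones, but by a small margin, and the log2 difference of 0.17 (95% confidence interval -0.052 to 0.39) missed the threshold (edgeR adjusted p = 0.183). With the offset for GC content and length the difference was smaller, at 0.11, and was called (edgeR adjusted p = 0.0218).

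Under shXPO7_3, ANO6 was at 131.0, 153.6 and 154.5 CPM, a log2 difference of 0.075 from induced cells (95% confidence interval -0.15 to 0.30, edgeR adjusted p = 0.9995). Under shXPO7_5 it was at 119.6, 148.1 and 114.7 CPM, a difference of -0.12 (95% confidence interval -0.35 to 0.098, edgeR adjusted p = 0.424). Both knockdown groups overlapped the induced group. The transcript of ANO6 has 42.0% GC, and its highest shXPO7_5 library was replicate A, the one with the weakest trend on GC content. With the offset the difference for shXPO7_5 changed sign to 0.042. ANO6 shares 55 exon bases with the pseudogene PLEKHA8P1 on the opposite strand, which had 33 to 123 counts.

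ANO4 (ENSG00000151572, chromosome 12), also described as a calcium-dependent scramblase and known mostly from the nervous system, fell on induction. Its levels were 33.7, 39.3 and 42.1 CPM in non-induced replicates T, A and C. They were 27.4, 25.4 and 25.6 CPM in induced replicates T, A and B. No library overlapped between the groups, and the log2 change was -0.55 (SE 0.11, edgeR adjusted p = 0.00128). The shRNAs did not bring it above the induced level: it was at 21.8, 25.0 and 25.4 CPM with shXPO7_3 and at 21.2, 26.8 and 21.1 CPM with shXPO7_5. The log2 differences from induced cells were -0.12 (95% confidence interval -0.36 to 0.13, edgeR adjusted p = 0.9995) and -0.18 (95% confidence interval -0.43 to 0.062, edgeR adjusted p = 0.303).

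ANO10 (ENSG00000160746, chromosome 3), which is mutated in a recessive cerebellar ataxia, was the other relative that fell on induction. It went from 120.7, 111.2 and 105.0 CPM in non-induced replicates T, A and C to 84.5, 85.0 and 89.1 CPM in induced replicates T, A and B. The groups did not overlap, and the log2 change was -0.38 (SE 0.08, edgeR adjusted p = 0.00116). With shXPO7_3 it stood at 89.4, 81.2 and 80.1 CPM and with shXPO7_5 at 92.0, 81.9 and 83.7 CPM. These levels overlapped those of induced cells, with log2 differences of -0.046 (95% confidence interval -0.21 to 0.12) and -0.0067 (95% confidence interval -0.17 to 0.16), and edgeR adjusted p-values of 0.9995 and 0.960. ANO10 shares 170 exon bases with ABHD5 on the opposite strand, which had 801 to 1693 counts per library.

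ANO8 (ENSG00000074855, chromosome 19), a tether between the endoplasmic reticulum and the plasma membrane, showed no called difference. Its means were 8.87 ± 1.40 CPM in non-induced cells, 8.98 ± 1.03 in induced cells, 8.81 ± 0.679 with shXPO7_3 and 9.81 ± 1.72 with shXPO7_5 (SD, n = 3). All groups overlapped, and the log2 differences were 0.019 (95% confidence interval -0.30 to 0.34) for induction, -0.029 (-0.35 to 0.29) for shXPO7_3 and 0.13 (-0.19 to 0.45) for shXPO7_5. The edgeR adjusted p-values were 0.925, 0.9995 and 0.572. Its transcript is the richest in GC of the family, at 66.6%, and with the offset the difference for shXPO7_5 was -0.16 in place of 0.13. ANO8 shares 79 exon bases with DDA1 on the opposite strand, which had 1903 to 4212 counts per library against 223 to 515 for ANO8.

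ANO7 (ENSG00000146205, chromosome 2), best known from the prostate, was the weakest of the tested members. It was at 1.70, 1.70 and 1.19 CPM in non-induced replicates T, A and C and at 1.89, 1.70 and 2.02 CPM in induced replicates T, A and B, where the groups met without crossing. The log2 difference was 0.29 (95% confidence interval -0.14 to 0.73, edgeR adjusted p = 0.237), and 0.43 with the offset for GC content and length (edgeR adjusted p = 0.0239). With shXPO7_3 the levels of 2.09, 1.69 and 1.96 CPM overlapped those of induced cells, at a log2 difference of 0.028 (95% confidence interval -0.39 to 0.45, edgeR adjusted p = 0.9995). With shXPO7_5 they were 2.70, 1.72 and 2.65 CPM in replicates T, A and B, a difference of 0.32 (95% confidence interval -0.094 to 0.74, edgeR adjusted p = 0.291) that was 0.079 with the offset. The ANO7 transcript has 60.8% GC, and replicate A again had the lowest level of the shXPO7_5 libraries.

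The remaining members were not expressed at a level that could be compared. ANO3 (chromosome 11), linked to inherited dystonia, had 2, 6 and 3 counts in non-induced libraries, 4, 4 and 10 in induced ones, 6, 2 and 10 with shXPO7_3 and 1, 4 and 4 with shXPO7_5. ANO5 (chromosome 11), whose loss causes a limb-girdle muscular dystrophy, had 2 counts in non-induced replicate A and 0 in the other 11 libraries. ANO9 (chromosome 11) had 1 count in induced replicate B, 2 in shXPO7_3 replicate B, 1 in shXPO7_5 replicate T and 0 elsewhere. A difference in these genes was not detectable at this depth.

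**Figure D3:**
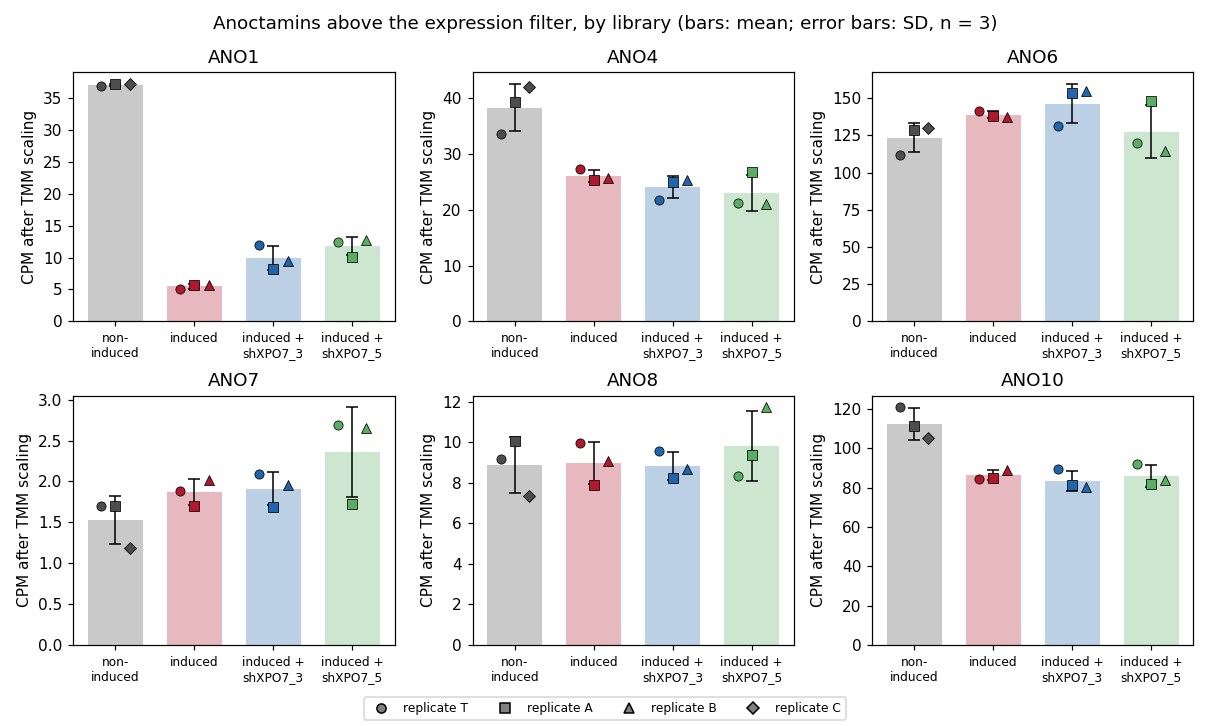
CPM of the 6 anoctamins above the filter on low counts, in panels with their own linear axis from 0, with bars for group means, error bars for the SD (n = 3) and 1 symbol per library by replicate letter. ANO1 drops from about 37.1 to 5.47 CPM and stands at 9.91 and 11.8 CPM under the shRNAs, ANO4 and ANO10 are lower in all 9 induced libraries than in the non-induced ones, and ANO6, ANO7 and ANO8 show no called difference.

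Of the 5 relatives tested, 2 were called on induction, ANO4 and ANO10, and both were lower. Over all genes tested 50.9% were called in that comparison, and 26.1% were called and lower, so a count of 2 in 5 is near the background. In either knockdown comparison 0 of the 5 relatives were called, by edgeR, and 0 had an unadjusted p under 0.05, with the same counts by DESeq2. The shares of all genes called there by edgeR were only 0.124% for shXPO7_3 and 0.589% for shXPO7_5, so a count of 0 is also near the background. An unadjusted p under 0.05 by edgeR was found for 6.41% and 21.6% of all genes tested, and DESeq2 called 88 and 426 genes. With the GC and length offset 1 of the 5 relatives had an unadjusted p under 0.05 for each shRNA, a share not worked out over all genes. With the GC and length offset 4 of the 5 were called on induction, with ANO6 and ANO7 higher, where 63.6% of all genes tested were called, and 0 of the 5 for each shRNA, where 2.33% (shXPO7_3) and 3.09% (shXPO7_5) were called, so these counts too are near the background. Without shXPO7_5 replicate A, 3634 genes were called for shXPO7_5 in place of 90, or 23.0% of those tested, and 0 of the 5 relatives. In that fit ANO7 (0.51, edgeR adjusted p = 0.0521), ANO4 (-0.30, edgeR adjusted p = 0.0540) and ANO6 (-0.25, edgeR adjusted p = 0.0621) lay further from 0 than with all libraries and just short of the threshold.

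The upper ends of the relatives' 95% confidence intervals ran up to 0.45 for shXPO7_3 and up to 0.74 for shXPO7_5, both for ANO7. The difference between ANO1 and its relatives was not tested. In data simulated on these libraries, 88.1% of genes changed by 1 on the log2 scale were called for shXPO7_3 and 95.5% for shXPO7_5. Of those changed by 0.5, only 34.3% and 41.8% were called. The simulation had no trends on GC content, and 67, 67 and 66 genes were changed by 0.5, 1 and 2. In the libraries themselves 19 and 90 genes were called, so the adjusted threshold asked for smaller p-values there. These shares may therefore be too high for the relatives, and changes of single relatives within their intervals could have been missed. The lower ends of those intervals ran down to -0.39 for shXPO7_3 (ANO7) and -0.43 for shXPO7_5 (ANO4). No interval of a tested relative thus reached a change of 1 in either direction, as far as the spread of these libraries covers it.

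**Figure D4:**
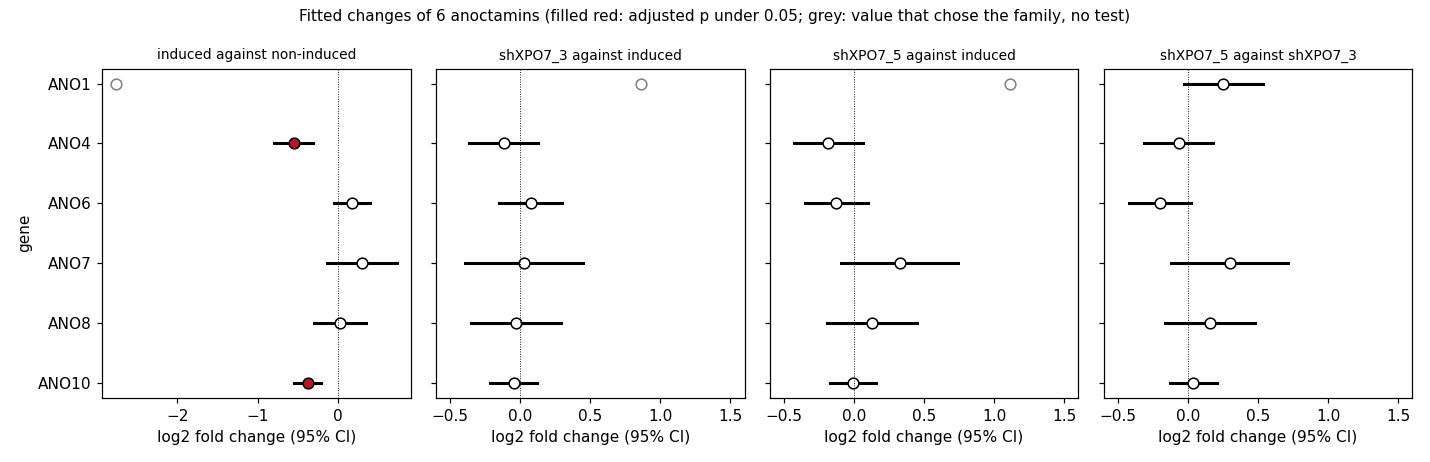
Log2 fold changes of the 6 anoctamins above the filter (dots) with 95% confidence intervals (lines) in 4 comparisons, where filled red dots have an adjusted p under 0.05 and grey dots without a line are the ANO1 values that chose the family. The axis of the first panel is wider than those of the others. ANO4 (-0.55) and ANO10 (-0.38) are the called relatives on induction, and under each shRNA every relative's interval includes 0 while ANO1 lies at 0.86 and 1.11.

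Genes of related function were taken from 3 lists. Of 33 other scramblases and flippases, 23 were tested on induction, of which 6 rose, 10 fell and 7 were not called, where 24.8% of all genes tested rose and 26.1% fell, with a median log2 change of -0.20 against -0.0068 for all genes tested. ATP8B1, a flippase mutated in inherited cholestasis, fell from 255.1 ± 29.3 to 36.9 ± 0.928 CPM (log2 -2.79, edgeR adjusted p = 8.99e-10). The P4-ATPases ATP8B3 (from 5.55 ± 0.302 to 1.61 ± 0.0538 CPM, log2 -1.78, edgeR adjusted p = 8.50e-07) and ATP10A (from 30.8 ± 3.41 to 10.9 ± 0.172 CPM, log2 -1.50, edgeR adjusted p = 2.53e-07) fell as well.

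Of 41 chloride channels and cotransporters outside the family, 26 were tested on induction, and 14 rose, 4 fell and 8 were not called, beside the same shares of 24.8% and 26.1% for all genes, with a median log2 change of 0.28 against -0.0068 for all genes tested. BEST3, a bestrophin, was at 0.347 ± 0.0829 CPM (37 counts) in non-induced and 1.84 ± 0.229 CPM (215 counts) in induced cells. CFTR, the cystic fibrosis channel, was at 0.135 ± 0.0391 CPM (15 counts) in non-induced and 0.860 ± 0.275 CPM (93 counts) in induced cells. BEST3 and CFTR passed the filter through groups other than the non-induced one, so their being called is no result and no fold is given. Both count among the 14 that rose. TTYH2, of the tweety family, fell from 2.17 ± 0.0753 to 0.784 ± 0.107 CPM (log2 -1.45, edgeR adjusted p = 6.80e-05).

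Calcium release, entry and removal, which set the calcium that opens anoctamins, was covered by 38 genes, of which 28 were tested, and on induction 5 rose, 9 fell and 14 were not called, close to the 50.9% of all genes that were called. The median log2 change was -0.14 against -0.0068 for all genes tested. ATP2A3, a pump that returns calcium to the endoplasmic reticulum, rose from 2.73 ± 0.337 to 24.7 ± 0.618 CPM (log2 3.18, edgeR adjusted p = 8.07e-10). SLC8A1, the sodium-calcium exchanger of the cell surface, fell from 44.7 ± 4.13 to 8.69 ± 0.278 CPM (log2 -2.36, edgeR adjusted p = 8.31e-08). The entry channel TRPC5 was at 0.600 ± 0.227 CPM (67 counts) in non-induced and 0.0495 ± 0.0635 CPM (7 counts) in induced cells, at the limit of detection. No induced library reached the filter's level for it, so no fold is given and its being called is no result.

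With either shRNA, 0 genes of the 3 lists were called by edgeR, where 0.124% (shXPO7_3) and 0.589% (shXPO7_5) of all genes tested were called. At an unadjusted p under 0.05 there were 4 scramblases and flippases, 0 chloride genes and 2 calcium genes for shXPO7_3, and 3, 9 and 10 for shXPO7_5, where 6.41% and 21.6% of all genes tested had such a p. With the GC and length offset edgeR called 2 scramblases and flippases, 0 chloride genes and 1 calcium gene for shXPO7_3 and 2, 2 and 1 for shXPO7_5. The shares of all genes tested called with the offset were 2.33% and 3.09%. Without shXPO7_5 replicate A edgeR called 7, 7 and 9 for shXPO7_5, where 23.0% of all genes tested were called. DESeq2 called 1 gene, a scramblase or flippase, for shXPO7_5 and none in these lists for shXPO7_3. Over all genes it called 426 for shXPO7_5 and 88 for shXPO7_3.

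The 5 genes whose profile over the 12 libraries was most like that of ANO1 were KIFC1, PKMYT1, CDC20, IRAG1 and ASF1B, out of 12646 genes ranked by the root-mean-square difference of log2 CPM after each gene was centred on its own mean. The difference was 0.231 for KIFC1, a kinesin of the mitotic spindle, 0.235 for PKMYT1, a kinase that holds back CDK1, and 0.238 for CDC20, an activator of the anaphase-promoting complex. It was 0.247 for IRAG1, a partner of the IP3 receptor, and 0.260 for ASF1B, a histone chaperone. Their log2 differences on induction ran from -2.80 (CDC20) to -2.38 (IRAG1), beside -2.76 for ANO1. Under shXPO7_3 they ran from 0.29 (KIFC1) to 0.50 (CDC20), beside 0.86 for ANO1, and under shXPO7_5 from 0.54 (IRAG1) to 0.63 (CDC20), beside 1.11. Of the relatives tested, ANO4 was nearest to this profile at rank 2137, then ANO10 at 2565, ANO8 at 6094, ANO6 at 7968 and ANO7 at 9161. The ranks are distances from the ANO1 values that chose the family, and the 5 genes were picked in the same libraries. Both are given without a test.

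**Figure D5:**
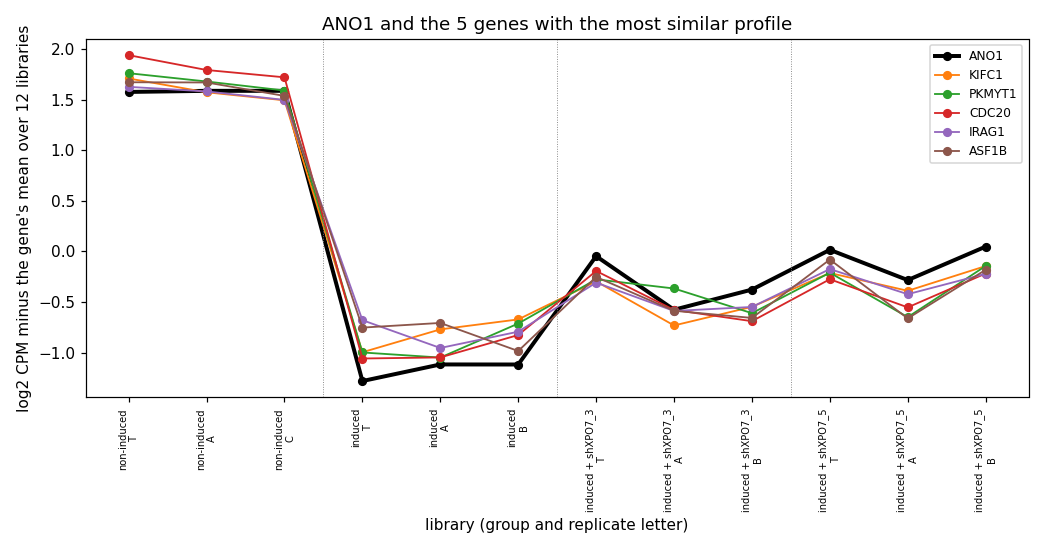
Log2 CPM minus each gene's mean over the 12 libraries for ANO1 (thick black line) and the 5 genes of most similar profile, with libraries in order of group along the horizontal axis. All 6 genes are high in the non-induced libraries and low in the induced ones, and ANO1 starts lower than the others in the induced libraries, with a larger difference under both shRNAs (0.86 and 1.11) than any of them. ANO1 was chosen by these differences and the 5 genes by likeness to it in the same libraries, so the comparison is a description with no test.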

How the data were processed

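The authors deposited raw counts of reads per gene for 12 libraries of IMR90 ER:RAS cells, made with a stranded mRNA kit. Builds hg19 and GRCh37 and the tools featureCounts 1.18.0, TopHat2 2.0.11 and CASAVA 1.8.4 are listed in the submitters' notes. Annotation and strand setting: not given in the sources used here. All 92 spike-in entries were at 0 and were left out. Groups came from the sample labels, and shXPO7_5 of the labels is taken to be the study's shXPO7_X5.

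Counts were filtered with filterByExpr (15284 genes kept), scaled by TMM and tested in edgeR 4.0.16 (R 4.3.3) by quasi-likelihood over all 12 libraries in 4 groups, with Benjamini-Hochberg adjustment over all genes tested and a threshold of 0.05. The test was checked on simulated data. Exon lengths, GC content and coding sequences came from GENCODE 29 by Ensembl ID, and proteins were aligned with Biopython 1.88 (BLOSUM62, gap open 11, extend 1). Alternatives were scaling by upper-quartile or RLE factors, a filter of 1 count only or of 1 CPM in 6 or more libraries, a block for the replicate letter, fits to just the compared pair of groups, leaving out single libraries, DESeq2 1.42.0, and an offset for GC content and length (97.3% of genes tested had both).

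The genes named are the 10 members, XPO7, up to 3 called genes of largest change per list and comparison, and the 5 genes most like ANO1 (log2 CPM averaging 0 or more). ANO1-AS1, overlapping genes and cell markers are named beside results they touch. The members and the lists were chosen with earlier results of these data known.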

Additional observations from a re-analysis of the deposited data

How the results depend on the processing

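Every call of ANO4 and ANO10 on induction, and the absence of calls for the relatives under either shRNA, held under all alternatives run; of the 480 single-gene values recomputed, 455 kept their direction and, where tested, their side of the threshold. The exceptions were calls of ANO6 (0.11) and ANO7 (0.43) on induction with the GC and length offset, which took the relatives called from 2 to 4, and 23 changes of sign of differences that were never called. Among these, ANO8 on induction became -0.079 with upper-quartile factors, -0.0097 with 1 CPM in at least 6 libraries and -0.15 with the replicate block, and -0.097 to 0.11 with 1 library left out. With the offset, ANO6 (0.042) and ANO8 (-0.16) changed sign for shXPO7_5 against induced cells, and ANO4 (0.0059), ANO8 (-0.10) and ANO10 (-0.053) for shXPO7_5 against shXPO7_3. ANO10 for shXPO7_5 became 0.010 with RLE factors, 0.046 with upper-quartile factors and 0.010 with DESeq2, and ran from -0.058 to 0.028 with 1 library left out. Leaving out 1 library also gave -0.040 to 0.10 for ANO7 and -0.11 to 0.049 for ANO8 with shXPO7_3, -0.019 to 0.23 for ANO8 with shXPO7_5, and -0.19 to 0.0028 for ANO4 and -0.012 to 0.097 for ANO10 between the shRNAs. ANO1 ran from -2.81 to -2.71 on induction, 0.70 to 0.97 with shXPO7_3 and 1.05 to 1.21 with shXPO7_5 when 1 library was left out.

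The number of genes called moved far more, and the cause was not tested. For shXPO7_3 it was 19, and 8 with upper-quartile factors, 30 with no filter, 2 with only the groups compared, 88 with DESeq2, 356 with the offset, and 1 to 24 with 1 library left out. For shXPO7_5 it was 90, and 217 with no filter, 149 with the replicate block, 10 with only the groups compared, 426 with DESeq2, 473 with the offset, and 2 to 3634 with 1 library left out (3634 without shXPO7_5 replicate A). Between the shRNAs it was 2, and 20 with no filter, 0 with only the groups compared, 27 with DESeq2, 34 with the offset, and 1 to 4 with 1 library left out. On induction it stayed between 6735 and 9721.

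It was not settled whether the replicate letters pair the libraries, so the replicate block is only an alternative. Of 15 same-letter pairs over all groups, 8 had deviations correlated above 0.1 (r from -0.234 to 0.589). Among the induced groups it was 4 of 9 (up to 0.368). Pairs of different letters ran from -0.62 to 0.512. Without the filter ANO2, ANO3, ANO5 and ANO9 were tested too, and none was called.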
